A study of Mus musculus with 8 samples.

Results

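The genes described here are 10 transcription factors of the primitive streak and early mesoderm: *T* (brachyury), *Mixl1*, *Eomes*, *Gsc*, *Tbx6*, *Mesp1*, *Mesp2*, *Meox1*, *Tcf15* and *Foxc2*. They were taken by symbol from an RNA-seq table of 36808 genes, and all 10 were listed in it. The table holds 8 libraries from mouse embryonic stem cells (ESCs) and from cells at day 5 of directed differentiation into spinal motor neurons (SMNs), in lines with and without an intact Polycomb Repressive Complex 2 (PRC2), which places the repressive histone mark H3K27me3. The question was where these mesoderm regulators were expressed in the ESCs of each line, and whether their RNA was present in cells directed towards a neural fate.

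The wild-type line was E14, of 129/Ola background, in ESCs and at day 5. *Suz12GT* cells, also 129/Ola, carry a gene trap that fuses SUZ12 to β-galactosidase, and are represented at day 5 only, since a library of their ESCs was not analysed here. *Suz12delta* cells (C57/BL6) carry a truncation of SUZ12, and *Eednull* cells (BALB/cR1) a point mutation in *Eed*. Both were measured in ESCs and at day 5. CJ7 (129/S) is a further wild-type line, measured in ESCs. Every mutation was studied in 1 cell line. All ESCs were kept with LIF on irradiated mouse embryonic fibroblasts, which were removed by a brief plating before collection or differentiation. Day 5 cells had been directed with retinoic acid and a Hedgehog pathway agonist. Except for *Suz12GT* against E14, strain background cannot be told apart from genotype.

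The primitive streak is the site of the gastrulating embryo where epiblast cells leave the epithelium to form mesoderm and definitive endoderm, under Nodal, WNT, BMP and FGF signals. *T*, *Mixl1*, *Eomes* and *Gsc* mark the streak and its anterior end, *Tbx6*, *Mesp1* and *Mesp2* act in nascent and presomitic mesoderm, and *Meox1*, *Tcf15* and *Foxc2* act in the somites and the mesenchyme that derives from them. Many such developmental regulators are known as PRC2 targets in ESCs. *Tcf15* is also known to be expressed in a fraction of ESCs.

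Promoter sequences are shown for *T*, *Eomes* and *Gsc*, because *T* and *Eomes* were highest in ESCs while *Gsc*, another streak gene, was highest at day 5 in 2 of the mutants. Each window runs from 250 bases before to 50 bases after the gene start and comes from RefSeq on build GRCm38.p6, a later build than that of the expression table. Of the 10 genes, 6 matched this promoter table; *Mixl1*, *Meox1*, *Tcf15* and *Foxc2* did not. Capitals mark the TCF/LEF core letters CTTTGA or CTTTGT and the T-box half-site core AGGTGT on either strand. These letters were picked with the sequences in view.
T, chr17:8434173-8434472, plus strand: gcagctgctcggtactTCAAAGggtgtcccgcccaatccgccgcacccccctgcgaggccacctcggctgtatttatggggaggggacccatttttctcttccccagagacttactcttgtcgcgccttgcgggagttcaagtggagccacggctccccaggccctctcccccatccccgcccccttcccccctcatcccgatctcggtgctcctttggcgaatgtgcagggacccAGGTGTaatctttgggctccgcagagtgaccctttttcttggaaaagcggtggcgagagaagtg
Eomes, chr9:118477939-118478238, plus strand: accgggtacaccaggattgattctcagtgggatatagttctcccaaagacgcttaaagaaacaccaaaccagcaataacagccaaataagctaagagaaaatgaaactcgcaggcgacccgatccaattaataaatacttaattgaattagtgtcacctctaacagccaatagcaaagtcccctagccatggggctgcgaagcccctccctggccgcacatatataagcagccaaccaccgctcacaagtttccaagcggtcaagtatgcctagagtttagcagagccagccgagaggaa
Gsc, chr12:104473187-104473486, minus strand: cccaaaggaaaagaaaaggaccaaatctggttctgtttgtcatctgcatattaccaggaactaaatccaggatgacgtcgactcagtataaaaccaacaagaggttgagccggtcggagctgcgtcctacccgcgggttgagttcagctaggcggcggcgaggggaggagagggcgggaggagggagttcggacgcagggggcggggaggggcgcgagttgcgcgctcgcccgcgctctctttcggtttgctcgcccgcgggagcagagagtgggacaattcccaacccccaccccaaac

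The *T* window held 1 match to CTTTGA, read on the opposite strand, and 1 to AGGTGT, while the *Eomes* and *Gsc* windows held none of the 3 motifs. Among all 32851 promoter windows of this length, 16% held CTTTGA, 18.7% held CTTTGT and 13.7% held AGGTGT. The *Mesp1* window held 2 matches to CTTTGA and 2 to AGGTGT, the *Mesp2* window 1 to AGGTGT, and the *Tbx6* window none. The number of CpG dinucleotides was 25 in *Gsc*, 17 in *T*, 10 in both *Eomes* and *Mesp2*, 7 in *Tbx6* and 4 in *Mesp1*, beside a median of 7 over all windows. A match describes letters in the window and not an occupied site.

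Values are FPKM, which scale the fragments of a gene by transcript length and by the mapped fragments in its library. They do not correct for library composition. The 10 most abundant genes held 7.69% of the summed FPKM in *Suz12delta* ESCs, 26.8% in E14 ESCs and 35.2% in CJ7 ESCs. Each condition had 1 library, so no value below has a replicate error and no test was possible. The table gives no read counts, the depth of each library is unknown, and values far below 0.1 FPKM rest on very few fragments. Ratios between libraries are log2 ratios of FPKM + 0.1, given for genes above 0 in both libraries and at 0.1 FPKM or more in at least 1. A gene is called higher or lower where this ratio reaches 1 or -1, that is 2-fold. The added 0.1 makes ratios of low genes smaller than the plain fold, which is given where both values are above 0.1 FPKM.

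As a check of the labels, the 6 pluripotency markers lay between 25.9 and 244 FPKM in the 4 ESC libraries and at 3.55 FPKM or less at day 5. *Olig2*, of the motor neuron lineage, was at 22.1 FPKM in E14 and 10.5 FPKM in *Suz12GT* cells at day 5. It was at 0.107 FPKM in *Suz12delta* and 0.0455 FPKM in *Eednull* cells. Other motor neuron markers were present there. Of the 8 listed, 7 in E14, 7 in *Suz12GT*, 5 in *Suz12delta* and 4 in *Eednull* cells were at 1 FPKM or more at day 5. The 8 summed to 136, 105, 20.7 and 19.0 FPKM in the same order. *Suz12* itself was at 6.21 FPKM in *Suz12delta* ESCs and between 35.7 and 53.1 FPKM in the other 3 ESC libraries. At day 5 *Suz12* did not set this line apart, at 11.6 FPKM in *Suz12delta*, 10.3 FPKM in *Suz12GT*, 16.2 FPKM in E14 and 17.6 FPKM in *Eednull* cells. The 12 feeder fibroblast markers (collagens and other mesenchymal genes) summed to 912 FPKM in *Suz12delta* ESCs, 344 FPKM in *Eednull* ESCs, 139 FPKM in CJ7 and 130 FPKM in E14 ESCs, with none of the 12 listed at 0 in any ESC library. The *Suz12delta* ESC library thus stood apart. At day 5 their sum was 4.79 FPKM in E14, 23.9 FPKM in *Suz12GT*, 136 FPKM in *Suz12delta* and 70.6 FPKM in *Eednull* cells. The labels pair the CJ7 library with another as prepared and sequenced together, for use as its wild-type control, and the code of that other library is the one on the *Eednull* ESC column. *Eednull* ESCs are therefore given against both E14 and CJ7. The E14 libraries are shared between comparisons.

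**Figure D1:**
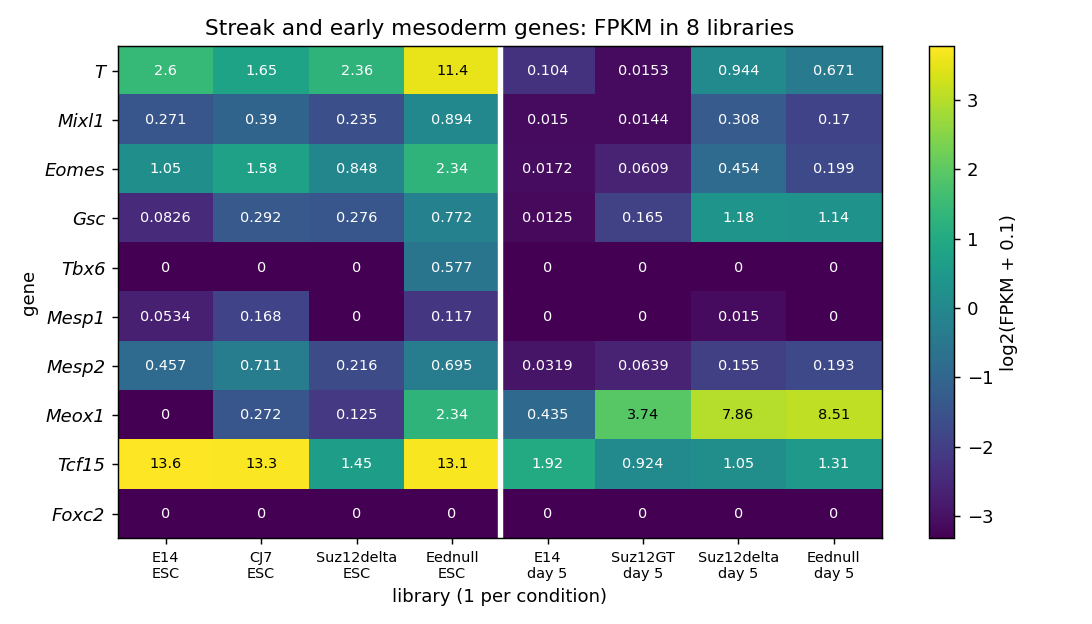
FPKM of the 10 genes (rows) in the 8 libraries (columns, ESCs left of the white line and day 5 right of it), with colour giving log2(FPKM + 0.1) and the printed number the FPKM. *T* peaks at 11.4 in *Eednull* ESCs, *Meox1* is highest in the 3 mutant day 5 libraries, *Tcf15* is near 13 in 3 of 4 ESC libraries, and *Foxc2* is listed at 0 throughout.

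Across the 8 libraries the 10 genes fell into different patterns. *T*, *Mixl1*, *Eomes* and *Tbx6* were highest in *Eednull* ESCs, *Mesp1* and *Mesp2* in CJ7 ESCs, *Tcf15* in E14 ESCs, *Gsc* in *Suz12delta* cells at day 5 and *Meox1* in *Eednull* cells at day 5. The number of the 10 genes at 1 FPKM or more was 4 in *Eednull* ESCs, 3 in E14 ESCs, CJ7 ESCs, *Suz12delta* day 5 and *Eednull* day 5, 2 in *Suz12delta* ESCs, and 1 in E14 and in *Suz12GT* cells at day 5. Without *Tcf15*, no gene of the set reached 1 FPKM in E14 cells at day 5.

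*T* encodes the T-box factor brachyury, which is required for posterior mesoderm and notochord (ENSMUSG00000062327, chromosome 17 from 8627288 to 8635361 on the plus strand of NCBI build 37). It was at 2.60 FPKM in E14 ESCs, 1.65 FPKM in CJ7 ESCs, 2.36 FPKM in *Suz12delta* ESCs and 11.4 FPKM in *Eednull* ESCs. At day 5 it was at 0.104 FPKM in E14, 0.0153 FPKM in *Suz12GT*, 0.944 FPKM in *Suz12delta* and 0.671 FPKM in *Eednull* cells. All 4 ESC values lay above all 4 day 5 values, *Eednull* ESCs stood above the other ESCs, and at day 5 *Suz12delta* and *Eednull* cells stood above E14 and *Suz12GT* cells. In *Eednull* ESCs 16.9% of all genes in the table were above *T*, against 33.2% in E14 ESCs.

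*Eomes*, a T-box factor of the streak needed for endoderm and cardiac mesoderm (ENSMUSG00000032446, chromosome 9 from 118387330 to 118395250, plus strand), followed a similar course at lower levels. Its ESC values were 1.05 FPKM in E14, 1.58 FPKM in CJ7, 0.848 FPKM in *Suz12delta* and 2.34 FPKM in *Eednull*. Its day 5 values were 0.0172 FPKM in E14, 0.0609 FPKM in *Suz12GT*, 0.454 FPKM in *Suz12delta* and 0.199 FPKM in *Eednull* cells. As for *T*, the ESC and day 5 values did not overlap.

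*Mixl1*, a homeobox gene of the streak (ENSMUSG00000026497, chromosome 1 from 182623174 to 182627165, minus strand), stayed under 1 FPKM in every library. It was at 0.271 FPKM in E14, 0.390 FPKM in CJ7, 0.235 FPKM in *Suz12delta* and 0.894 FPKM in *Eednull* ESCs. At day 5 it was at 0.0150 FPKM in E14, 0.0144 FPKM in *Suz12GT*, 0.308 FPKM in *Suz12delta* and 0.170 FPKM in *Eednull* cells. Here the *Suz12delta* day 5 value was above 2 of the ESC values, so the stages overlapped.

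*Gsc*, which encodes goosecoid, a homeobox repressor of the anterior streak and later of head and limb mesenchyme (ENSMUSG00000021095, chromosome 12 from 105709419 to 105711537, minus strand), had another course. Its ESC values were 0.0826 FPKM in E14, 0.292 FPKM in CJ7, 0.276 FPKM in *Suz12delta* and 0.772 FPKM in *Eednull*. At day 5 it was at 0.0125 FPKM in E14, 0.165 FPKM in *Suz12GT*, 1.18 FPKM in *Suz12delta* and 1.14 FPKM in *Eednull* cells. Its 2 highest values were those of the *Suz12delta* and *Eednull* lines at day 5, and its lowest was E14 at day 5.

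Of the nascent and presomitic mesoderm genes, *Mesp2* sets the segment boundaries of the presomitic mesoderm (ENSMUSG00000030543, chromosome 7 from 86955613 to 86958317, plus strand). It was at 0.457 FPKM in E14, 0.711 FPKM in CJ7, 0.216 FPKM in *Suz12delta* and 0.695 FPKM in *Eednull* ESCs. At day 5 it was at 0.0319 FPKM in E14, 0.0639 FPKM in *Suz12GT*, 0.155 FPKM in *Suz12delta* and 0.193 FPKM in *Eednull* cells. Its neighbour *Mesp1*, a bHLH gene of the earliest mesoderm and of heart precursors, lies 16938 bases away on the opposite strand (ENSMUSG00000030544, 86937127 to 86938674). *Mesp1* was at 0.0534 FPKM in E14 ESCs, 0.168 FPKM in CJ7 ESCs, 0.117 FPKM in *Eednull* ESCs and 0.0150 FPKM in *Suz12delta* cells at day 5, and was listed at 0 in the other 4 libraries. Both genes were thus low throughout, with their highest values in wild-type CJ7 ESCs.

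*Tbx6*, the T-box factor that commits progenitors to paraxial mesoderm (ENSMUSG00000030699, chromosome 7 from 133924997 to 133929074, plus strand), was at 0.577 FPKM in *Eednull* ESCs and listed at 0 in the other 7 libraries. Its neighbours *Aldoa*, *Ppp4c* and *Ypel3* were at 9.78 FPKM or more in all 8 libraries. A value listed at 0 is not taken here as absence of RNA.

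*Meox1*, a homeobox gene of the somites (ENSMUSG00000001493, chromosome 11 from 101738824 to 101755688, minus strand), was listed at 0 in E14 ESCs and was at 0.272 FPKM in CJ7, 0.125 FPKM in *Suz12delta* and 2.34 FPKM in *Eednull* ESCs. At day 5 it was at 0.435 FPKM in E14, 3.74 FPKM in *Suz12GT*, 7.86 FPKM in *Suz12delta* and 8.51 FPKM in *Eednull* cells. All 3 mutant libraries at day 5 stood above all others, and *Suz12delta* and *Eednull* were close to each other. In *Eednull* cells at day 5, 21.4% of all genes in the table were above *Meox1*, against 42.8% in E14 cells.

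*Tcf15*, also called paraxis, is a bHLH gene needed for the epithelial somite (ENSMUSG00000068079, chromosome 2 from 151969297 to 151974833, plus strand). It was at 13.6 FPKM in E14, 13.3 FPKM in CJ7 and 13.1 FPKM in *Eednull* ESCs, but at 1.45 FPKM in *Suz12delta* ESCs. At day 5 it was at 1.92 FPKM in E14, 0.924 FPKM in *Suz12GT*, 1.05 FPKM in *Suz12delta* and 1.31 FPKM in *Eednull* cells. The *Suz12delta* ESC library therefore lay within the range of the day 5 libraries.

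*Foxc2*, a forkhead gene of paraxial mesoderm and vessels (ENSMUSG00000046714, a single exon on chromosome 8 from 123640071 to 123642792, plus strand), was listed at 0 in all 8 libraries, but this is not a measurement of the gene. Its entry in the table was merged with a stretch of 4.44 Mb, from 122434260 to 126869624, that 152 genes share. All 152 were listed at 0 in all 8 libraries, including *Rpl13* and *Cox4i1*, which every cell uses, and the forkhead neighbour *Foxf1a*. Of 62 protein-coding genes within 6 Mb of *Foxc2* but outside the merged entry, 0 were at 0 in all libraries. The neuronal gene *Tubb3* lies in the same entry. No statement on *Foxc2* can be made from these values, which leaves 9 of the 10 genes.

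**Figure D2:**
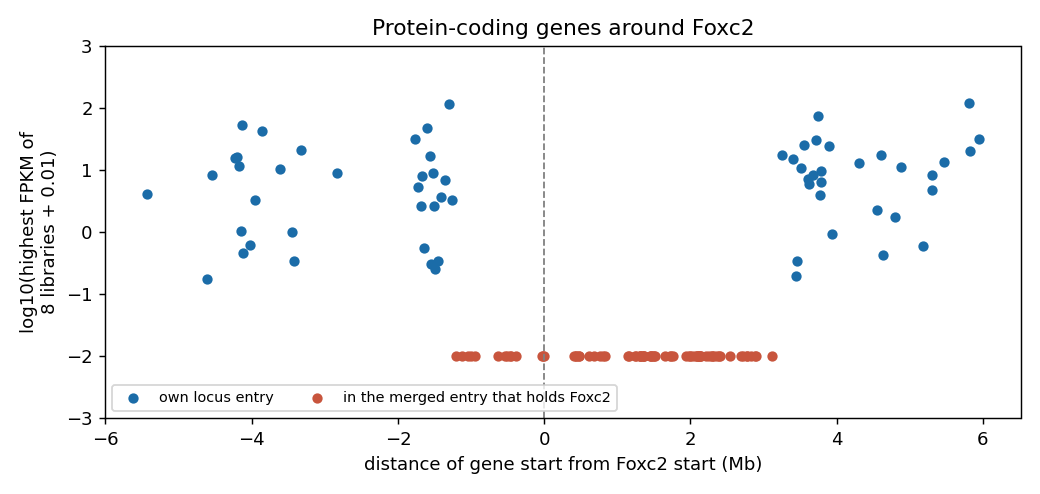
Highest FPKM over the 8 libraries (log10 of FPKM + 0.01) of protein-coding genes by the distance of their start from that of *Foxc2* in Mb, with 1 point per gene. The 74 protein-coding genes of the merged entry all lie at the bottom, at 0 FPKM, while the 62 genes on either side have values above 0.

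In ESCs, the comparisons asked whether loss of PRC2 function alone, before differentiation, went with mesoderm gene RNA. Against E14 ESCs, *Eednull* ESCs had 4 of 7 genes compared at least 2-fold higher, where 11.5% of 20237 genes were higher. Of these 7 genes 0 were lower, where 9.71% were lower. The 4 were *T* (log2 ratio 2.09, 4.40-fold), *Gsc* (2.26), *Mixl1* (1.42, 3.30-fold) and *Eomes* (1.09, 2.23-fold), the streak markers of the set. *Gsc* was under 0.1 FPKM in E14 ESCs and could enter only through *Eednull* ESCs. *Mesp1* and *Mesp2* had log2 ratios of 0.50 and 0.51 and *Tcf15* of -0.06. *Meox1* and *Tbx6* were listed at 0 in E14 ESCs and get no ratio, *Foxc2* is not measured, and the median of the 7 ratios was 1.09 against -0.06 over all genes.

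The comparison was repeated against CJ7, the wild-type line that by its labels shares preparation and sequencing with *Eednull* ESCs. Here 4 of 8 genes compared were again higher, where 11.8% of 20987 genes were, and 0 were lower, where 5.71% were. They were *T* (log2 ratio 2.72, 6.93-fold), *Meox1* (2.71, 8.60-fold), *Gsc* (1.15, 2.64-fold) and *Mixl1* (1.02, 2.29-fold). *Eomes* was at a log2 ratio of 0.54 and no longer called. *T*, *Mixl1* and *Gsc* were thus called against both wild-type lines. With a pseudocount of 1, *T* (1.79) was the 1 gene still called against E14, while *Gsc* (0.71), *Eomes* (0.71) and *Mixl1* (0.58) were not. With a minimum of 1 FPKM, *T* and *Eomes* were the 2 left. CJ7 itself against E14 had 1 of 7 genes compared higher, *Gsc* (1.10), where 6.69% of 19601 genes were higher, and 0 lower, where 11.2% were.

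*Suz12delta* ESCs did not show this pattern. They had 1 of 6 genes compared higher than E14, *Gsc* at a log2 ratio of 1.04, where 13.7% of 20042 genes were higher. Of these 6 genes 1 was lower, *Tcf15* at -3.14 or 9.37-fold, where 21.4% were lower. The log2 ratio was -0.13 for *T*, -0.15 for *Mixl1*, -0.28 for *Eomes* and -0.82 for *Mesp2*. Against CJ7, 0 of 7 genes compared were higher, where 17.2% of 20238 genes were. The 2 that were lower, where 18.6% were, were *Tcf15* (-3.11) and *Mesp2* (-1.36). The *Gsc* ratio to CJ7 was -0.06, so *Gsc* differed from E14 in *Suz12delta* ESCs about as much as one wild-type line differed from the other. The difference between *Eednull* and *Suz12delta* ESCs has no replicate and was not tested. Over the same libraries the pluripotency genes *Pou5f1* and *Nanog* were at 58.1 and 88.0 FPKM in *Suz12delta* ESCs and at 130 and 155 FPKM in E14 ESCs, and all 12 feeder fibroblast markers were called higher. The part of feeder RNA in the low *Tcf15* value was not tested.

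**Figure D3:**
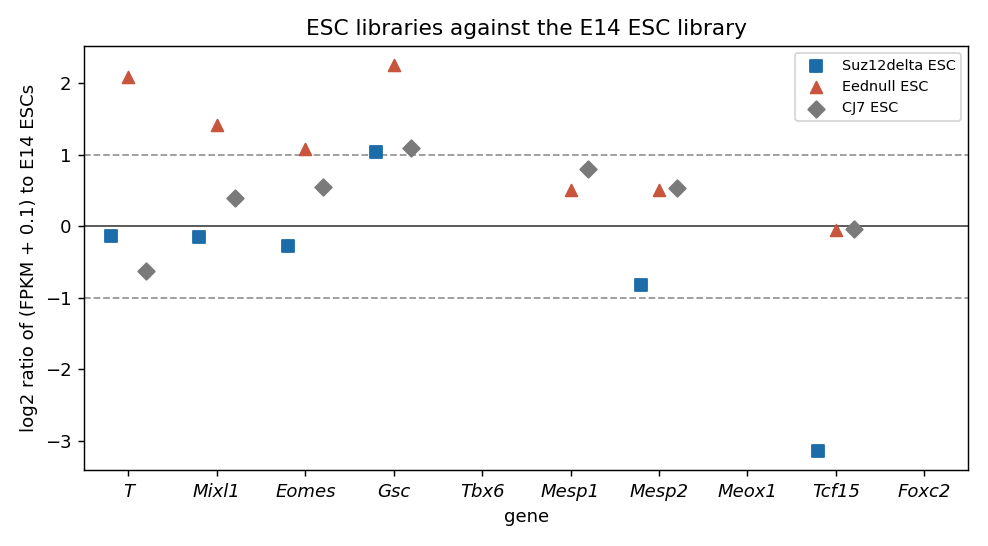
Log2 ratio of FPKM + 0.1 of each gene in *Suz12delta*, *Eednull* and CJ7 ESCs to E14 ESCs, with 1 point per library and dashed lines at 2-fold. Only *Eednull* ESCs exceed 2-fold for *T* (2.09), *Mixl1* (1.42) and *Eomes* (1.09), and only *Suz12delta* ESCs lie below the lower line, for *Tcf15* (-3.14); genes without a ratio have no point.

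Other genes of the streak were set beside these. Of 12 streak signals (ligands, their inhibitors and cofactors of the Nodal, WNT, BMP and FGF pathways), 2 were higher and 0 lower in *Eednull* ESCs against E14, with a median log2 ratio of -0.04. Over all genes 11.5% were higher and 9.71% lower. Both higher signals were under 0.1 FPKM in E14 ESCs. They entered only through *Eednull* ESCs and could not have come out lower. *Nodal*, the main inducer of the streak, was at 16.5 FPKM in E14 and 11.0 FPKM in *Eednull* ESCs, with 9.21 FPKM in CJ7 ESCs. *Tdgf1*, its co-receptor, was at 150 FPKM in E14, 244 FPKM in *Eednull* and 178 FPKM in CJ7 ESCs. In *Suz12delta* ESCs 7 of 11 compared were lower and 0 higher than in E14, where 21.4% and 13.7% of all genes were. The median was -1.37, and the lowest ratios were those of *Fgf8* (0.974 against 20.5 FPKM) and *Nodal* (3.74 FPKM). Against CJ7, 4 of 11 were lower and 0 higher (median -0.92), where 18.6% and 17.2% of all genes were. *Fgf8* was also low in CJ7 ESCs, at 2.93 FPKM. In CJ7 against E14 ESCs 1 of 11 signals compared was higher and 2 were lower (median -0.39), where 6.69% and 11.2% of all genes were. The 1 higher signal was under 0.1 FPKM in E14 ESCs and entered only through CJ7 ESCs. *Tdgf1* is also on the list of 6 pluripotency markers, of which 4 were lower in *Suz12delta* and 2 in *Eednull* ESCs against E14. The part of pluripotency genes in the streak signal counts was not tested.

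Another list held 12 other regulators of streak and nascent mesoderm. Against E14, 9 of 12 compared were higher and 1 lower in *Eednull* ESCs (median 1.95), where 11.5% and 9.71% of all genes were. In *Suz12delta* ESCs 9 of 11 compared were higher and 2 lower (median 1.44), where 13.7% and 21.4% of all genes were. Against CJ7 these counts were 8 higher and 0 lower in *Eednull* (median 1.73) and 5 higher and 0 lower in *Suz12delta* ESCs (median 0.98), of 11 compared in each. Over all genes 11.8% were higher and 5.71% lower in *Eednull*, and 17.2% and 18.6% in *Suz12delta* ESCs. In CJ7 against E14 ESCs 2 of 10 compared were higher and 3 lower (median -0.04), where 6.69% and 11.2% of all genes were. In each of these comparisons, genes under 0.1 FPKM in the wild-type reference could enter only through the other library. *Foxa2*, a forkhead gene of anterior streak and endoderm, was at 2.61 FPKM in *Eednull* against 0.147 FPKM in E14 ESCs. *Hand1*, a bHLH gene of lateral and extraembryonic mesoderm, was at 17.9 FPKM in *Suz12delta*, 2.63 FPKM in *Eednull* and 0.198 FPKM in E14 ESCs. *Sp5*, a WNT target, was at 1.39 FPKM in *Eednull*, 0.838 FPKM in *Suz12delta* and 1.58 FPKM in CJ7 ESCs, all lower than the 8.12 FPKM of E14 ESCs. Markers of other cell types were higher in *Eednull* ESCs as well. The 8 endoderm markers summed to 23.9 FPKM in *Eednull*, 5.57 FPKM in *Suz12delta*, 1.95 FPKM in CJ7 and 1.26 FPKM in E14 ESCs. Of the motor neuron markers 3 of 6 compared were higher in *Eednull* than in E14 ESCs (median 1.2), with *Olig2* at 5.19 against 0.0436 FPKM, and of the feeder fibroblast markers 5 of 12 were. Their part in the *Eednull* values of *T*, *Gsc*, *Mixl1* and *Eomes* was not tested. All 12 feeder fibroblast markers were higher in *Suz12delta* ESCs. Their part in the regulator counts and in the *Hand1* value of that library was not tested.

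At day 5 the comparisons asked whether mesoderm genes stayed on, or came on, in mutant cells directed towards motor neurons. In *Suz12delta* cells 5 of 7 genes compared were higher than in E14 cells, where 20.9% of 19770 genes were, and 0 were lower, where 7.76% were. In *Eednull* cells 6 of 7 were higher, where 16.8% of 19514 genes were, and 0 were lower, where 9.55% were. In *Suz12GT* cells 2 of 4 were higher, where 13.2% of 19475 genes were, and 0 were lower, where 2.42% were. *Mixl1*, *Eomes*, *Gsc* and *Mesp2* were under 0.1 FPKM in E14 cells and could enter a comparison only through a mutant library, so these counts describe the values and carry no test.

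*Meox1* had log2 ratios of 2.84 in *Suz12GT* (8.60-fold), 3.90 in *Suz12delta* (18.1-fold) and 4.01 in *Eednull* cells (19.6-fold). *Gsc* had log2 ratios of 1.23, 3.51 and 3.47 in the same order. Which of these genes had the larger ratio depends on the pseudocount: with 0.01 in place of 0.1, *Gsc* was at 5.73 in *Suz12delta* and 5.68 in *Eednull* cells, above the 4.15 and 4.26 of *Meox1*. With 1, *Gsc* was at 0.20 in *Suz12GT* cells and not called there. These were the 2 genes called in all 3 mutant lines. *T* was called in *Suz12delta* (2.36, 9.09-fold) and *Eednull* cells (1.92, 6.46-fold) but had a ratio of -0.82 in *Suz12GT* cells, from 0.0153 FPKM. *Eomes* had ratios of 2.24 in *Suz12delta* and 1.35 in *Eednull* cells, and *Mixl1* of 1.83 and 1.23. In *Suz12GT* cells both stayed under the minimum. *Mesp2* had a ratio of 0.95 in *Suz12delta* and 1.15 in *Eednull* cells, on either side of the 2-fold limit although its levels were close. *Tcf15* was lower than E14 in all 3, at -0.98, -0.82 and -0.53, and called in none.

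The levels reached at day 5 differed between the genes. *T* in *Suz12delta* and *Eednull* cells at day 5 (0.944 and 0.671 FPKM) was still below its level in each ESC library, whereas *Meox1* (7.86 and 8.51 FPKM) and *Gsc* (1.18 and 1.14 FPKM) were above theirs. Markers of other cell types were also higher in all 3 mutant libraries. Of the 12 feeder fibroblast markers, those called higher were 9 of 10 compared in *Suz12GT*, 10 of 10 in *Suz12delta* and 10 of 10 in *Eednull* cells. The 8 endoderm markers summed to 1.56 FPKM in E14, 23.5 FPKM in *Suz12GT*, 45.7 FPKM in *Suz12delta* and 35.9 FPKM in *Eednull* cells. The 6 pluripotency markers summed to 0.776 FPKM in E14, 7.65 FPKM in *Suz12GT*, 13.4 FPKM in *Suz12delta* and 6.77 FPKM in *Eednull* cells, with 4 of 4 compared, 4 of 4 and 3 of 4 called higher. Several of these markers were near 0 in E14 cells and entered only through a mutant library. Of the 8 motor neuron markers, all 7 that are measured were lower in *Suz12delta* and *Eednull* cells, and 2 in *Suz12GT* cells. The part of such cells in the values of *Meox1*, *Gsc*, *T*, *Eomes* and *Mixl1* was not tested. In bulk RNA, more cells that express a gene and more RNA per cell cannot be told apart.

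**Figure D4:**
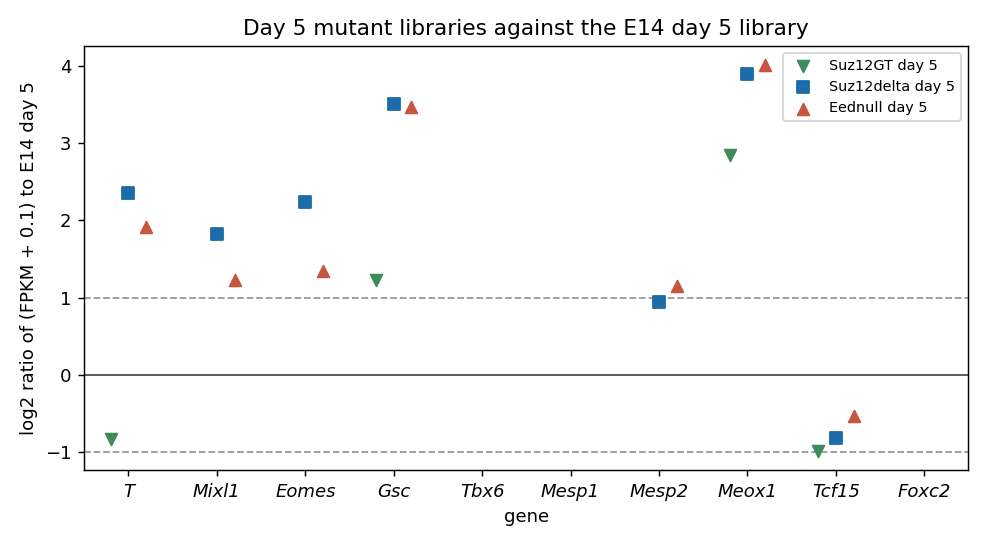
Log2 ratio of FPKM + 0.1 of each gene in *Suz12GT*, *Suz12delta* and *Eednull* cells to E14 cells at day 5, with 1 point per library and dashed lines at 2-fold. *Meox1* and *Gsc* are above the upper line in all 3 mutants, *T*, *Mixl1* and *Eomes* in *Suz12delta* and *Eednull* cells, and *Tcf15* lies between -0.98 and -0.53; genes without a ratio have no point.

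Beside the set, the 12 other streak and nascent mesoderm regulators were compared. Of these, 7 of 8 compared were higher in *Suz12delta* (median 3.94) and 7 of 8 in *Eednull* cells (median 3.88). In *Suz12GT* cells 5 of 7 were higher (median 1.96), and 0 were lower in any line. Over all genes 20.9% were higher in *Suz12delta*, 16.8% in *Eednull* and 13.2% in *Suz12GT* cells. Genes under 0.1 FPKM in E14 cells, *Cdx2* among them, could enter only through a mutant library and could not have come out lower. *Cdx2*, a posterior and trophoblast homeobox gene, was at 6.77 FPKM in *Suz12delta* and 5.79 FPKM in *Eednull* cells but at 0.00927 FPKM in E14 cells. *Pdgfra*, a receptor of paraxial mesoderm, was at 11.7 FPKM in *Suz12delta*, 11.0 FPKM in *Eednull*, 2.23 FPKM in *Suz12GT* and 0.135 FPKM in E14 cells. Of the 12 streak signals, 7 of 9 compared were higher in *Suz12delta* (median 1.81) and 2 of 6 in *Eednull* cells (median 0.81). In *Suz12GT* cells 5 of 8 were higher (median 1.46), with 0 lower in any line. Signals under 0.1 FPKM in E14 cells had the same limit. *Bmp4* stood out at 8.73 FPKM in *Suz12delta* and 6.64 FPKM in *Eednull* cells against 0.140 FPKM in E14, while *Tdgf1* reached 2.94 FPKM in *Suz12delta* cells. Most streak signals thus stayed far below their ESC levels, *Bmp4* in *Suz12delta* and *Eednull* cells excepted. *Tdgf1* is also on the list of 6 pluripotency markers, which were low at day 5 as well. The part of pluripotency genes in the levels of this list was not tested.

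The change from ESCs to day 5 was then taken within each line that has both stages. In E14 cells only 5 of the 10 genes could be compared. Of these, 0 were higher at day 5, where 15.3% of 19020 genes were, and 5 were lower, where 21.3% were. The 5 were *T* (-3.73, 25.1-fold), *Eomes* (-3.29), *Tcf15* (-2.76, 7.06-fold), *Mesp2* (-2.08) and *Mixl1* (-1.69). *Eomes*, *Mesp2* and *Mixl1* were under 0.1 FPKM at day 5 and could enter only through the ESC library, so they could not have come out higher. *Gsc* was under 0.1 FPKM at both stages, and *Meox1* went from a listed 0 to 0.435 FPKM.

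In *Eednull* cells 5 of 7 genes compared were lower at day 5, where 16.6% of 20852 genes were, and 1 was higher, where 16.2% were. The 5 were those lower in E14 cells: *T* (-3.90, 17.1-fold), *Tcf15* (-3.23), *Eomes* (-3.03, 11.8-fold), *Mixl1* (-1.88, 5.25-fold) and *Mesp2* (-1.44, 3.59-fold). *Meox1* was the gene that was higher (1.82, 3.64-fold), and *Gsc* was at 0.51. The labels name no preparation that the *Eednull* ESC and day 5 libraries share, so a batch cannot be told apart from this change.

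In *Suz12delta* cells 1 of 7 genes compared was lower at day 5, *T* (-1.24, 2.50-fold), where 9.65% of 20841 genes were. The 2 that were higher, where 24.6% were, were *Meox1* (5.14, 62.7-fold) and *Gsc* (1.77, 4.28-fold). *Eomes* (-0.78), *Tcf15* (-0.44), *Mesp2* (-0.31) and *Mixl1* (0.28) did not reach 2-fold. *Tcf15* was already at 1.45 FPKM in the ESCs of this line. *T* was lower at day 5 than in ESCs in all 3 lines, with log2 ratios of -3.73 in E14, -1.24 in *Suz12delta* and -3.90 in *Eednull* cells. The difference between these changes was not tested.

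**Figure D5:**
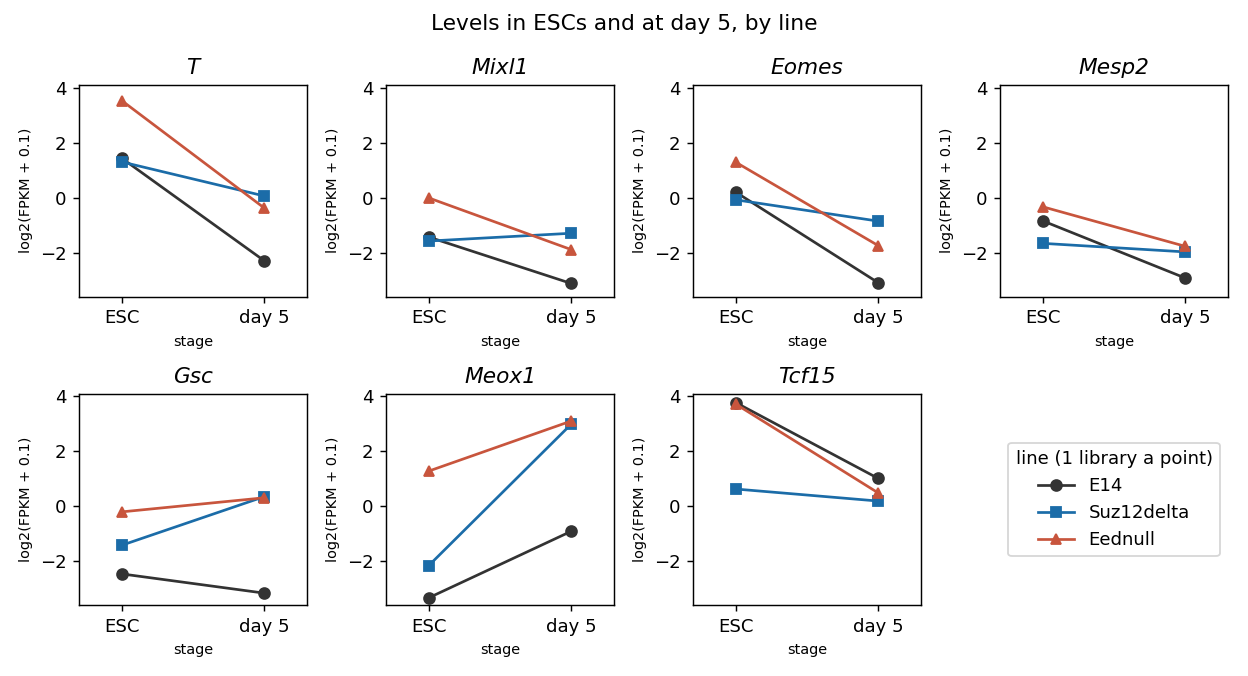
Log2(FPKM + 0.1) of 7 genes in ESCs and at day 5, with 1 line per cell line (E14, *Suz12delta*, *Eednull*) and 1 library per point. *T* descends in every line from 2.36 FPKM or more in ESCs, *Meox1* ascends in every line to 8.51 FPKM in *Eednull* cells, and the *Suz12delta* line of *Tcf15* starts low, at 1.45 FPKM in ESCs.

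Among the streak signals, 9 were lower at day 5 and 0 higher in each of the 3 lines, of 9, 11 and 10 compared in E14, *Suz12delta* and *Eednull* cells. Their medians were -7.19, -3.80 and -5.80 in the same order. Over all genes 21.3%, 9.65% and 16.6% were lower in these lines, and 15.3%, 24.6% and 16.2% higher. Signals under 0.1 FPKM at day 5 could enter only through the ESC library. Of the pluripotency markers, which share *Tdgf1* with this list, 4 of 4, 6 of 6 and 5 of 5 compared were lower too. *Lefty1*, a Nodal inhibitor, went from 193 to 0.152 FPKM in E14 cells and from 158 to 0.314 FPKM in *Eednull* cells. *Bmp4* went from 5.56 to 0.140 FPKM in E14 cells but was at 7.93 and 8.73 FPKM in *Suz12delta* and at 6.39 and 6.64 FPKM in *Eednull* ESCs and day 5 cells. Of the other streak and nascent mesoderm regulators, 2 of 8 compared were higher and 4 lower in E14 cells (median -1.14). Of 10 compared, 5 were higher and 2 lower both in *Suz12delta* (median 1.36) and in *Eednull* cells (median 1.06). *Foxa2*, which also marks the floor plate, was higher at day 5 in all 3 lines, and *Kdr*, a receptor of mesodermal vessel precursors, reached 8.45 FPKM in *Suz12delta* and 7.49 FPKM in *Eednull* cells.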

How the data were processed

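The unit of the deposited table is FPKM for each gene, which the authors obtained from 8 sequenced libraries with Bowtie 0.12.7, TopHat 1.3.2, Cufflinks 1.2.1 and Cuffdiff on an Ensembl-based annotation of NCBI build 37 (mm9), with correction for bias and for reads that map to several places. Every per-sample column was assigned to a library. Values were used as deposited, without rescaling, so differences in library composition, and any feeder RNA, remain in them. A listed 0 was not read as absence: each library listed up to 5 genes at 0 that reached 10 FPKM in all others.

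From these, log2 ratios of FPKM + 0.1 were computed with Python 3.11.15, NumPy 2.4.6 and pandas 2.3.3, and tested on simulated data. Calls used 2-fold over genes at 0.1 FPKM or more in 1 library and above 0 in both. The genes and lists were chosen with earlier results of these data known. All 10 genes are named. From each list at most 2 genes at either end of a comparison are named, at 1 FPKM or more. For each of the 10 genes that reached 1 FPKM, the 2 genes of most similar profile are named. *Olig2*, *Pou5f1*, *Nanog*, *Suz12*, *Tubb3*, *Meox2*, the neighbours of *Tbx6* and *Foxc2*, the second line's value of a named gene and the ESC values of *Fgf8* and *Nodal* were added after values were seen. Gene bounds were taken from GENCODE vM1, where 6 of the 10 genes have the same bounds as in the table. Alternatives were other pseudocounts, minimum values, scaling and CJ7 as wild type.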

Additional observations from a re-analysis of the deposited data

How the results depend on the processing

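Other minimum values and keeping genes listed at 0 change which genes are compared and leave each ratio as it is. Of 184 ratios of single genes recomputed under the other alternatives, 154 stayed on their side of the 2-fold limit, 20 dropped under it, 9 passed it and 1 reversed: *Gsc* in *Suz12delta* ESCs, at -0.0616 against CJ7. With a pseudocount of 1, the number of genes at least 2-fold higher was 0 in *Suz12delta* ESCs, 1 in *Eednull* ESCs, 0 in CJ7 ESCs, and 1, 2 and 2 in *Suz12GT*, *Suz12delta* and *Eednull* cells at day 5. From ESCs to day 5 it gave 3 lower in E14 and in *Eednull* cells, and 0 lower and 1 higher in *Suz12delta* cells. With a minimum of 1 FPKM, 0 were higher in *Suz12delta* ESCs, 2 in *Eednull* ESCs, 0 in CJ7 ESCs, and 1, 2 and 2 in the mutants at day 5, with 3 lower over differentiation in E14 and in *Eednull* cells. A pseudocount of 0.01 gave 2 lower in *Suz12delta* ESCs, 2 higher in CJ7 ESCs and 2 lower (*T* and *Tcf15*) in *Suz12GT* cells at day 5. Keeping genes listed at 0 gave 2 higher in *Suz12delta* and in CJ7 ESCs and 1 higher (*Meox1*) over E14 differentiation. Scaling to the 75th percentile gave 1 lower (*Tcf15*) in *Suz12GT* cells at day 5 and 2 lower over *Suz12delta* differentiation. It moved the median over all genes from -0.32 to 0.03 in *Suz12delta* ESCs, from -0.17 to 0.04 in CJ7 ESCs, from -0.06 to 0.10 in *Eednull* ESCs, from 0.21 to 0.06 in *Suz12delta* cells at day 5, and over differentiation from 0.42 to 0.06 in *Suz12delta* and from -0.17 to -0.04 in E14 cells. With CJ7 as wild type, 0 were higher and 2 lower in *Suz12delta* ESCs. The counts rest mostly on genes under 1 FPKM, whose read support is unknown. No paired analysis was possible because each condition has 1 library.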

Other observations

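Genes that act later, in segmentation and in somite mesenchyme, were also measured. Of 10 genes of presomitic segmentation, 5 of 7 compared were higher and 1 lower over E14 differentiation (median log2 ratio 1.51). Over all genes 15.3% were higher and 21.3% lower. The 1 lower gene was under 0.1 FPKM at day 5 and could enter only through the ESC library. At day 5 the median against E14 was -0.60 in *Suz12GT* (2 higher, 1 lower), -1.64 in *Suz12delta* (1 higher, 4 lower) and -2.79 in *Eednull* cells (1 higher, 4 lower). The numbers compared were 8, 8 and 7 in the same order. Over all genes 13.2%, 20.9% and 16.8% were higher, and 2.42%, 7.76% and 9.55% lower. All these higher genes were under 0.1 FPKM in E14 cells. They entered only through a mutant library and could not have come out lower. *Dll1* and *Dll3*, Notch ligands that neural progenitors also express, were at 28.3 and 33.4 FPKM in E14 cells but at 0.745 and 0.235 FPKM in *Suz12delta* and 1.33 and 0.195 FPKM in *Eednull* cells. *Tbx18*, of the anterior part of each somite, went the other way, at 1.72 FPKM in *Suz12delta*, 1.56 FPKM in *Eednull* and 0.00611 FPKM in E14 cells. In ESCs this list had 1 higher and 4 lower in *Suz12delta* (median -0.97), 0 higher and 1 lower in *Eednull* (median 0.28), and 0 higher and 1 lower in CJ7 (median -0.23). In each case 8 were compared with E14. Over all genes 13.7%, 11.5% and 6.69% were higher in the same order, and 21.4%, 9.71% and 11.2% lower. The 1 lower gene in *Eednull* and in CJ7 ESCs was *Dll1*, at 4.97 and 4.33 FPKM against 18.8 FPKM in E14. Over differentiation the list had 2 higher and 3 lower of 9 compared in *Suz12delta* cells (median 0.28), where 24.6% and 9.65% of all genes were. In *Eednull* cells it had 3 higher and 3 lower of 7 compared (median -0.30), where 16.2% and 16.6% were.

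Of 10 other regulators of somites and mesenchyme, 5 of 5 compared were higher than E14 at day 5 in *Suz12GT* (median 1.87), 6 of 6 in *Suz12delta* (median 3.69) and 6 of 6 in *Eednull* cells (median 3.46). Over all genes 13.2%, 20.9% and 16.8% were higher in the same order. *Foxc1* and *Meox2* were under 0.1 FPKM in E14 cells and entered only through a mutant library. *Osr1*, of intermediate and lateral mesoderm, was at 15.2 FPKM in *Suz12delta* and 11.8 FPKM in *Eednull* cells against 0.127 FPKM in E14, and *Twist1* was at 3.18 FPKM in *Suz12GT* against 0.253 FPKM in E14 cells. In ESCs 6 of the 7 compared were higher in *Suz12delta* (median 1.83), 4 of 7 in *Eednull* (median 1.5) and 1 of 6 in CJ7 (median 0.32). Over all genes 13.7%, 11.5% and 6.69% were higher in the same order. Genes under 0.1 FPKM in E14 ESCs, *Meox2* among them, could enter only through the other library and could not have come out lower. *Prrx1*, which fibroblasts express, was at 55.5 FPKM in *Suz12delta* against 4.69 FPKM in E14 ESCs. Feeder markers were also highest in that library, and their part in this value was not tested. From ESCs to day 5, 3 were lower and 0 higher in E14 (median -1.05), 3 higher and 1 lower in *Suz12delta* (median 0.57), and 3 higher and 2 lower in *Eednull* cells (median 0.13). The numbers compared were 5, 8 and 8 in the same order. Over all genes 15.3%, 24.6% and 16.2% were higher, and 21.3%, 9.65% and 16.6% lower.

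Similarity of profile was taken as the root mean square difference of log2(FPKM + 0.1) over the 8 libraries, each profile centred on its mean, against 18537 genes. The nearest to *T* were *2410019O14Rik* (0.64) and *Ccno* (0.65), and those to *Eomes* were *Myh6* (0.23) and *Tex19.2* (0.29). Those to *Gsc* were *Trf* (0.28) and *Pax3* (0.32). *Meox1* was nearest to *Foxa1* (0.71) and *Lpar3* (0.74), and *Tcf15* to the short RNA entries *Mir1947* (0.42) and *mmu-mir-2144* (0.44). *Foxa1*, an endoderm and floor plate gene, was at 4.92 FPKM in *Suz12GT*, 7.42 FPKM in *Suz12delta* and 8.17 FPKM in *Eednull* cells at day 5 and at 1.34 FPKM in *Eednull* ESCs. Within the set, only genes that reached 1 FPKM in a library were compared with each other. Among these, *T* and *Eomes* were each other's nearest (0.79), and *Gsc* and *Meox1* differed by 1.66. *Mixl1*, *Mesp1*, *Mesp2* and *Tbx6* were left out of this comparison. With 8 libraries and many genes, such neighbours are a description only.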
